A study of Mus musculus with 10 samples.

Results

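The genes described here encode negative regulators of the Ras-ERK pathway: 4 dual-specificity MAP kinase phosphatases (Dusp4, Dusp5, Dusp6 and Dusp7), 3 Sprouty proteins (Spry1, Spry2 and Spry4) and 3 Spred proteins (Spred1, Spred2 and Spred3). The 10 genes were taken by symbol from the 26312 genes of a normalized count table of mouse mammary epithelial cells. All 10 averaged 10 normalized counts or more over the libraries, as did 15180 genes of the whole table, and these 15180 were tested together.

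ERK is the last kinase of a cascade that runs from receptor tyrosine kinases through Ras, RAF and MEK, and among its substrates is RSK2, the kinase encoded by Rps6ka3. Active ERK raises the transcription of several of its own inhibitors, so the transcripts of these genes are often read as a record of ERK output. The phosphatases remove the activating phosphates from ERK, Sprouty proteins act between the receptor and RAF, and Spred proteins restrain Ras. In the mammary gland, ERK is activated by epidermal and fibroblast growth factor receptors in ducts that are remodelled with each estrous cycle.

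The mice were C57BL/6J and 12 weeks old, with the genotype RSK2(+/+), called WT, or RSK2(-/-), called KO, and their 4th mammary glands were taken at estrus or diestrus. There were 3 WT and 3 KO libraries at estrus and 2 WT and 2 KO libraries at diestrus. RNA came from cells sorted by FACS as EpCAM-high, CD49f-positive (CD49f-low in the sample source), Sca-1-positive and CD49b-negative. The labels do not say how the deletion was made, nor whether a library holds 1 mouse or a pool, so p-values measure the spread between libraries. In bulk RNA, fewer cells of a type and less RNA per cell cannot be told apart.

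The libraries summed to 14108057 to 15307238 normalized counts. Rps6ka3 stood at 136, 128 and 137 normalized counts in the WT estrus libraries, at 158, 156 and 164 in KO estrus, at 165 and 139 in WT diestrus and at 156 and 165 in KO diestrus. It was therefore no lower in the libraries labelled KO (KO minus WT at estrus 0.25 ± 0.16 on the log2 scale, SE, limma adjusted p = 0.350). A count over the whole gene does not check the deletion, and the genotype is used as labelled. The luminal keratin Krt8 had a mean of 152341 normalized counts. The 6 hormone-sensing luminal markers (Esr1, Pgr, Prlr, Foxa1, Cited1 and Areg) had means from 1100 for Pgr to 38103 for Prlr. All passed the level filter, and none of the 6 hormone-sensing markers was called in any comparison. The basal keratin Krt14 (mean 300) and the fibroblast marker Dcn (845) passed the filter too, so passing it does not identify the cells. In a principal component analysis, axis 1 (29.3% of the variance) had the 3 KO estrus libraries at 37.4 to 55.8 and the other 7 at -33.1 to -5.50.

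The start regions of 4 of the genes are shown because Dusp5 differed from the other phosphatases in its pattern, because Dusp7 and Spred1 are 2 of the 3 genes called below, and because Spred2 was the only other gene of the set with a match to a searched motif. Sequences were found for 8 of the 10 genes in RefSeq's GRCm38.p6 annotation, each from 250 bases before to 50 bases after the annotated start. Each is written 5′ to 3′ on the gene's own strand, and capitals mark motif matches. The motifs, searched on both strands, were GGAAGT (an ETS motif), TGANTCA (AP-1), TGACGT (the core of a cAMP response element) and the CArG box, the serum response factor motif. Overlapping matches of different motifs were allowed and none occurred.
Dusp5: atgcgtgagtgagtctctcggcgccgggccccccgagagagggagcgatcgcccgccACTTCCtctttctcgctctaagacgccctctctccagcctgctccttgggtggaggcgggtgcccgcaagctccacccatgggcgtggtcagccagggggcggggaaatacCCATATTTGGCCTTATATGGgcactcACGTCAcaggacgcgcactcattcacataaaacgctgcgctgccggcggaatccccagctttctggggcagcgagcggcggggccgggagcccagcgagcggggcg
Dusp7: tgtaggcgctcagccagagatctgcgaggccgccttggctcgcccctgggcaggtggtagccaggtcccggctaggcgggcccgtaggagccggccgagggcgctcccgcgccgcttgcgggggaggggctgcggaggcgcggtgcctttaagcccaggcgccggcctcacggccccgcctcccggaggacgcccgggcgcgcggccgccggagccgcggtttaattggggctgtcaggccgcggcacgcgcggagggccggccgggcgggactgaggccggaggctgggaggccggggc
Spred1: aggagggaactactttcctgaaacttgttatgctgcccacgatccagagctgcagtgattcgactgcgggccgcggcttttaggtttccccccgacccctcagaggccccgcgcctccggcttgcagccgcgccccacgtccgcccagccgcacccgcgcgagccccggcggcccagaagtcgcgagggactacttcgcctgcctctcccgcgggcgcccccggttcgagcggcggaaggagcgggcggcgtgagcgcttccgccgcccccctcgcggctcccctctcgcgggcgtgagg
Spred2: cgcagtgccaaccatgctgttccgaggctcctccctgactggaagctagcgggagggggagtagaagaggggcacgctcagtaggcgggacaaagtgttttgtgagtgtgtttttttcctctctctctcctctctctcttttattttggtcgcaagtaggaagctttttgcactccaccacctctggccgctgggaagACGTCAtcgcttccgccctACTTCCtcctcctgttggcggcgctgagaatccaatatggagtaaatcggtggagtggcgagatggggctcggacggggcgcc

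The Dusp5 window, chr19:53528895-53529194 on the plus strand, held 2 adjacent CArG boxes, CCATATTTGG at 82 to 73 bases and CCTTATATGG at 72 to 63 bases before the start. It also held TGACGT, in reverse as ACGTCA, at 56 to 51 bases and GGAAGT, in reverse as ACTTCC, at 193 to 188 bases before the start. Among 32851 promoter windows of the same length, 1.63% held a CArG box, and Dusp5 was the 1 gene of the 8 that did. The Spred2 window, chr11:19924192-19924491 on the plus strand, held TGACGT at 52 to 47 bases and GGAAGT at 33 to 28 bases before the start, both in reverse. GGAAGT was present in 23.8% of all windows and TGACGT in 7.51%, and each was found in 2 of the 8 genes. TGANTCA was in 7.81% of all windows and in none of the 8. The windows of Dusp7, chr9:106368382-106368681, and Spred1, chr2:117120821-117121120, both on the plus strand, held no match and were 78.7% and 72.3% G or C, against 66.7% for Dusp5. A match is a description of these letters and not a bound site.

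The 4 phosphatases were far more abundant than the Sprouty and Spred genes in these cells. As mean levels per kilobase of exon over the 10 libraries, Dusp5 stood at 1582 and Dusp6 at 1402 normalized counts, followed by Dusp4 at 579 and Dusp7 at 576. Spry1 was the highest of the others at 129, then Spred1 at 58.9 and Spred2 at 47.7. Spry2 at 23.3, Spry4 at 15.9 and Spred3 at 5.76 normalized counts per kilobase were the lowest. Levels per kilobase do not correct for which transcript isoforms the cells used.

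**Figure D1:**
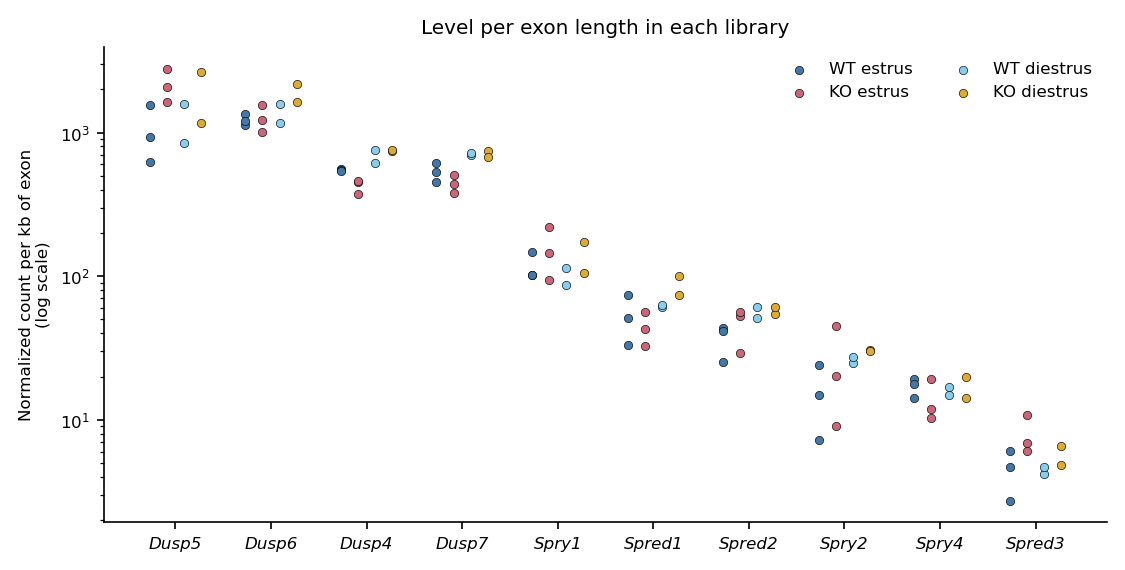
Level of each gene in each library, as normalized counts per kilobase of exon on a log axis, with genes ordered by their mean over the 10 libraries. Each point is 1 library, coloured by group. The 4 phosphatases lie above the other 6 genes, and Dusp5 has a wide scatter within its groups, while Dusp4 has a narrow one.

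The genes differed in how far libraries of 1 group lay apart, which sets what could be detected. The SD within groups on the log2 scale was 0.130 for Dusp4, lower than for all but 9.16% of tested genes, and 0.184 for Dusp7 and 0.260 for Dusp6. It was 0.612 for Dusp5, at the 90.0th percentile, and 0.812 for Spry2, at the 96.0th percentile, against a median of 0.264 over tested genes. Spry4, Spred2, Spred1, Spred3 and Spry1 lay between, from 0.331 to 0.461. Changes in Dusp5 and Spry2 therefore had to be larger than changes in Dusp4 to pass the same test.

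Across the 5 comparisons, genes of the set were called in 1 of them, estrus against diestrus in the KO libraries, where Dusp4, Dusp7 and Spred1 were lower at estrus. No gene of the set was called between KO and WT at either stage, between stages in WT, or for the interaction of genotype and stage. The test was limma on log2(normalized count + 1) with Benjamini-Hochberg adjustment over all 15180 genes, and a gene was called at an adjusted p under 0.05. Fold changes are on that scale, so they understate the change of low genes.

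Dusp4, on chr8:34807297-34819894, encodes an inducible phosphatase of the nucleus that acts on ERK and other MAP kinases. It had 1534, 1494 and 1478 normalized counts in the WT estrus libraries and 1030, 1249 and 1265 in KO estrus. At diestrus it had 1676 and 2061 in WT and 2027 and 2059 in KO. Every KO estrus library was below every library of the other 3 groups, and every WT estrus library was below every diestrus library. Here and for the genes below, the share of all genes with a separation across more than 2 groups was not counted. From estrus in WT (1502 ± 28.8, SD, n = 3) to estrus in KO (1181 ± 131, n = 3) the log2 difference was -0.35 ± 0.13 (SE, limma adjusted p = 0.119). Between stages in KO, Dusp4 fell at estrus to 0.576 times the diestrus level (log2 -0.80 ± 0.15, SE, 95% interval -1.12 to -0.48, limma adjusted p = 0.00809). In WT the stage difference was -0.31 ± 0.15 (limma adjusted p = 1), and the interaction was -0.49 ± 0.21 (limma adjusted p = 0.327). The stage difference is thus not shown to differ between the genotypes.

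Dusp5, on chr19:53529109-53542431, encodes an inducible nuclear phosphatase that binds ERK selectively. Its levels were 2289, 3813 and 1547 normalized counts in WT estrus and 4024, 5140 and 6885 in KO estrus. In diestrus they were 3887 and 2100 in WT and 2885 and 6549 in KO. All 3 KO estrus libraries lay above all 3 WT estrus libraries, the reverse of Dusp4, while the diestrus groups overlapped. As fitted on the log2 scale, the KO level at estrus was 2.19 times the WT level (log2 1.13 ± 0.37, SE, 95% interval 0.32 to 1.94, limma adjusted p = 0.0865), which missed the threshold. The adjusted p ranged from 0.0764 to 0.245 over the alternative settings. At diestrus the same difference was 0.61 ± 0.46 (limma adjusted p = 0.958), and between stages in KO it was 0.26 ± 0.42 (adjusted p = 0.698). A gene on the opposite strand shares 547 exon bases with Dusp5 and was not analysed here, and whether the counting used strand is not given in the sources used here.

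Dusp6, on chr10:99263231-99267489, encodes the cytoplasmic phosphatase that is the classic ERK feedback target. It was measured at 3519, 4183 and 3788 normalized counts in WT estrus and at 3178, 3845 and 4864 in KO estrus. The diestrus values were 3665 and 4941 in WT and 5076 and 6849 in KO. The KO estrus libraries lay on both sides of the WT estrus ones, whereas both KO diestrus libraries were above every library of the other 3 groups. At estrus KO and WT differed by 0.03 ± 0.19 (SE, 95% interval -0.38 to 0.44, limma adjusted p = 0.935), so a difference of more than about 0.44 log2 units in either direction lies outside the interval. The stage difference in KO was -0.60 ± 0.21 (limma adjusted p = 0.0715), and without KO estrus library 3 it was -0.75 with an adjusted p of 0.0293, which passes the threshold. KO minus WT at diestrus was 0.47 ± 0.23 (limma adjusted p = 0.858).

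Dusp7, on chr9:106368632-106375724, encodes the closest relative of DUSP6, also cytoplasmic and selective for ERK. Its normalized counts were 1510, 2062 and 1781 in WT estrus, 1707, 1267 and 1469 in KO estrus, 2328 and 2416 in WT diestrus, and 2495 and 2282 in KO diestrus. All 4 diestrus libraries were above all 6 estrus libraries, and the genotypes overlapped at both stages. In KO the gene fell at estrus to 0.616 times the diestrus level (log2 -0.70 ± 0.17, SE, 95% interval -1.07 to -0.33, limma adjusted p = 0.0199). In WT the difference was -0.42 ± 0.17 (limma adjusted p = 1), with an interaction of -0.28 ± 0.24 (adjusted p = 0.622). KO minus WT was -0.27 ± 0.15 at estrus (limma adjusted p = 0.294) and 0.01 ± 0.19 at diestrus (adjusted p = 0.996).

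**Figure D2:**
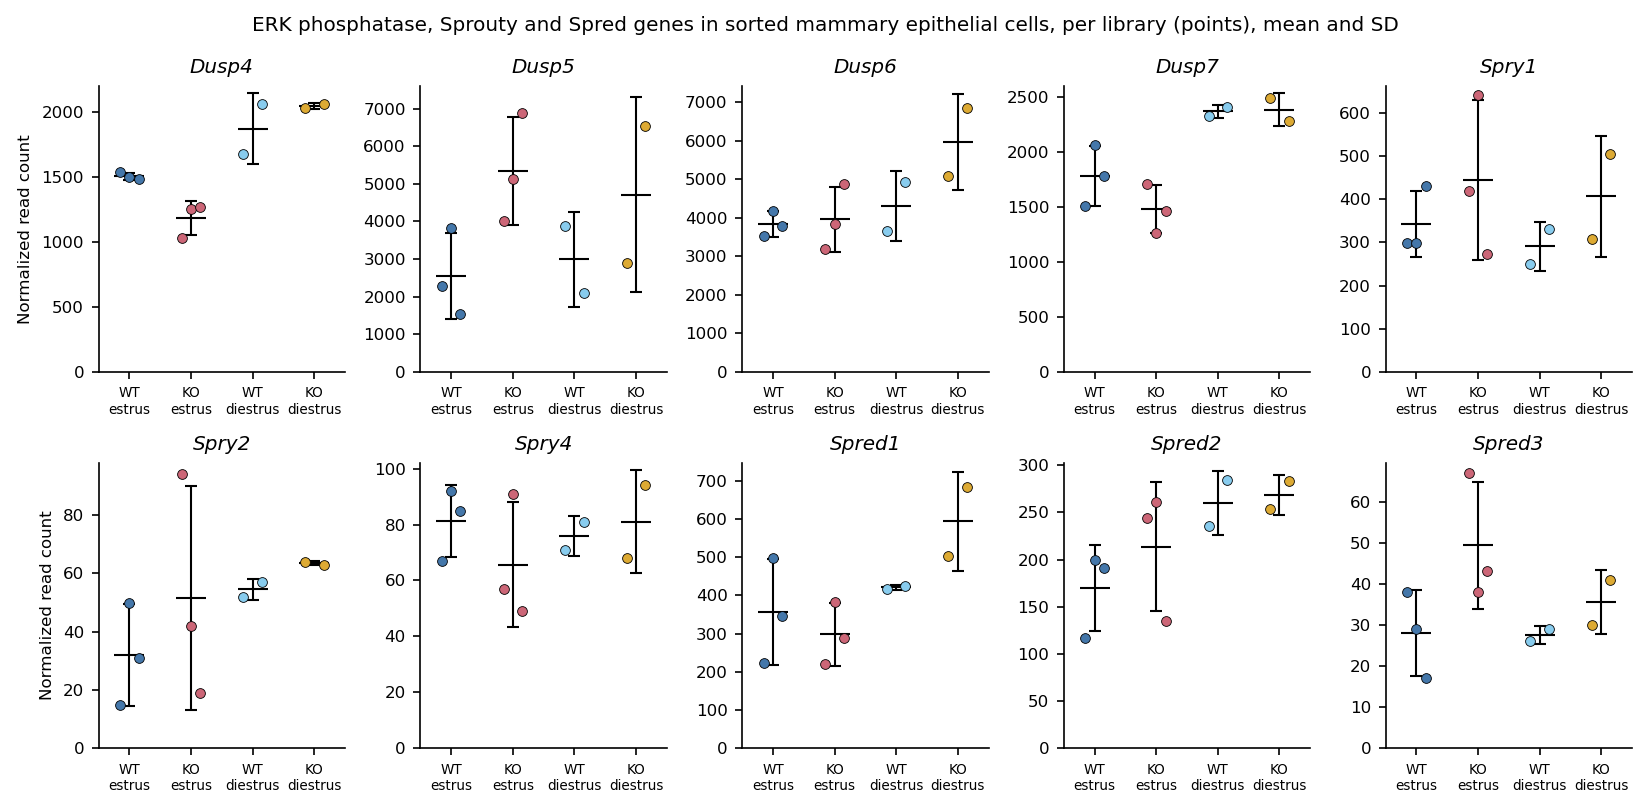
Normalized count of each gene in every library, 1 panel per gene, with points for libraries, a horizontal line for the group mean and error bars of 1 SD; each vertical axis starts at 0. Dusp4 and Dusp7 are lowest in the KO estrus group by their means, Dusp5 is highest there by its mean, and the Spry and Spred groups mostly overlap.

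Of the Sprouty genes, none was called in any comparison. Spry1, on chr3:37639947-37644598, was the most abundant, with 298, 298 and 430 normalized counts in WT estrus and 420, 642 and 273 in KO estrus. Its diestrus values were 251 and 330 in WT and 308 and 505 in KO. All neighbouring groups in the order of its means, from KO estrus to WT diestrus, overlapped. KO minus WT was 0.31 ± 0.30 at estrus (SE, limma adjusted p = 0.536) and 0.45 ± 0.36 at diestrus (adjusted p = 0.968). The gene shares 710 exon bases with Gm42922 on the other strand, which had a mean of 32.5 normalized counts.

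Spry2, on chr14:105891947-105896819, is a widely studied Sprouty that binds the ubiquitin ligase CBL. It was close to the lower end of what was measured, at 15, 50 and 31 normalized counts in WT estrus, 94, 42 and 19 in KO estrus, 52 and 57 in WT diestrus and 64 and 63 in KO diestrus. In WT the estrus libraries all lay below both diestrus ones (log2 -0.90 ± 0.59, SE, not called). The KO estrus libraries spread beyond the diestrus ones on both sides. At estrus KO minus WT was 0.55 ± 0.52 (SE, 95% interval -0.59 to 1.69, limma adjusted p = 0.545), an interval that holds both 0 and a change of more than 1 log2 unit. Spry4, which acts on the same pathway, ranged from 49 to 94, with 67, 92 and 85 in WT estrus, 57, 91 and 49 in KO estrus, 71 and 81 in WT diestrus and 68 and 94 in KO diestrus. Its largest difference between 2 groups was KO minus WT at estrus, -0.34 ± 0.27 (limma adjusted p = 0.456), and no neighbouring groups in the order of its means were separate.

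Spred1, on chr2:117121374-117182279, encodes the protein that brings the Ras inactivator neurofibromin to the membrane. It had 224, 499 and 347 normalized counts in WT estrus and 221, 384 and 290 in KO estrus. At diestrus the values were 417 and 426 in WT and 503 and 685 in KO. The KO diestrus libraries were the highest 2 of all 10, and the WT estrus group spanned the WT diestrus values. Within KO, Spred1 fell at estrus to 0.496 times the diestrus level (log2 -1.01 ± 0.31, SE, 95% interval -1.68 to -0.34, limma adjusted p = 0.0445), close to the threshold. In WT the stage difference was -0.32 ± 0.31 (limma adjusted p = 1) and the interaction was -0.70 ± 0.44 (adjusted p = 0.481). KO minus WT was -0.22 ± 0.28 at estrus (limma adjusted p = 0.659) and 0.48 ± 0.34 at diestrus (adjusted p = 0.943).

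Spred2, on chr11:19924375-20024026, a relative of Spred1 with the same domains, had 117, 200 and 191 normalized counts in WT estrus and 244, 261 and 135 in KO estrus. Its diestrus values were 236 and 284 in WT and 253 and 283 in KO, so WT estrus lay wholly below WT diestrus (log2 -0.65 ± 0.30, SE, limma adjusted p = 1). Spred3, on chr7:29158829-29170411, is the least abundant member, with 38, 29 and 17 in WT estrus, 67, 38 and 43 in KO estrus, 26 and 29 in WT diestrus and 30 and 41 in KO diestrus. The KO estrus libraries were at or above the highest WT one, with a tie at 38. Its KO minus WT difference at estrus was 0.82 ± 0.35 (SE, limma adjusted p = 0.164). Ggn, on the other strand, shares 202 exon bases with Spred3 and had a mean of 11 normalized counts.

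Read against the whole table, the set did not stand apart between genotypes at estrus. There 0 of its 10 genes were called, while 4.2% of all tested genes were, and 3 of 10 (Dusp4, Dusp5 and Spred3) had an unadjusted p under 0.05 by limma, against 25.8% of all genes. The values of KO and WT did not overlap for 2 of the 10, Dusp5 above and Dusp4 below, and for 26% of all genes. The genes did not move as a block: 6 differences were above 0 and 4 below, with a median of 0.17 against -0.01 over all tested genes. The T cell receptor gene Trbc2, a lymphocyte marker, had 183, 150 and 137 normalized counts in KO estrus and 90, 57 and 68 in WT estrus (log2 1.13 ± 0.22, SE, limma adjusted p = 0.0276, a call lost in 9 of 20 alternatives), and its part in the results was not tested.

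At diestrus all 10 differences between KO and WT were above 0, from 0.01 for Dusp7 to 0.61 for Dusp5, with a median of 0.28 against -0.00 over all genes. With 1 diestrus library left out, 4 of the 10 turned below 0 in at least 1 case: Dusp4, Dusp7, Spry4 and Spred2 without WT library 1 (lowest -0.09, Spred2), Dusp7 without KO library 1 (-0.06), and Spry4 (-0.16) and Spred2 (-0.03) without KO library 2. That of Dusp5 was 1.20 without KO library 1, 0.01 without KO library 2, 1.05 without WT library 1 and 0.16 without WT library 2. None was called by limma, with adjusted p from 0.858 to 0.996, and 0 of the 10 had an unadjusted p under 0.05. Of all genes, 0.0395% were called and 5.92% had an unadjusted p under 0.05. The 2 libraries of each genotype did not overlap for 4 genes, Dusp6, Spred1, Spry2 and Spred3, all higher in KO, and for 43.1% of all genes. Since the 10 genes were measured in the same 4 libraries, their shared sign is a single observation of those libraries.

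Between stages in WT, 8 of the 10 differences were below 0, estrus minus diestrus, with a median of -0.28 against -0.00. Limma called 0 of the 10 and 0% of all genes, and 1 of the 10, Dusp7, had an unadjusted p under 0.05, against 3.87%. Dusp4, Dusp7, Spry2 and Spred2 were lower in all 3 estrus libraries than in both diestrus ones, a separation found for 17.7% of all genes in either direction.

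Between stages in KO, 7 of the 10 differences were below 0, with a median of -0.48 against -0.01 over all genes. Limma called 3 of the 10, all lower at estrus, where 16.6% of all tested genes were called and 8.95% were called lower. At an unadjusted p under 0.05 there were 4 of 10, Dusp6 with the 3 called genes, against 33.8% of all genes. These 4 were also the genes whose groups did not overlap, as for 51% of all genes. For the interaction of genotype and stage 0 of 10 and 0% of all genes were called, and 1 of 10, Dusp4, had an unadjusted p under 0.05, against 14.2%.

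**Figure D3:**
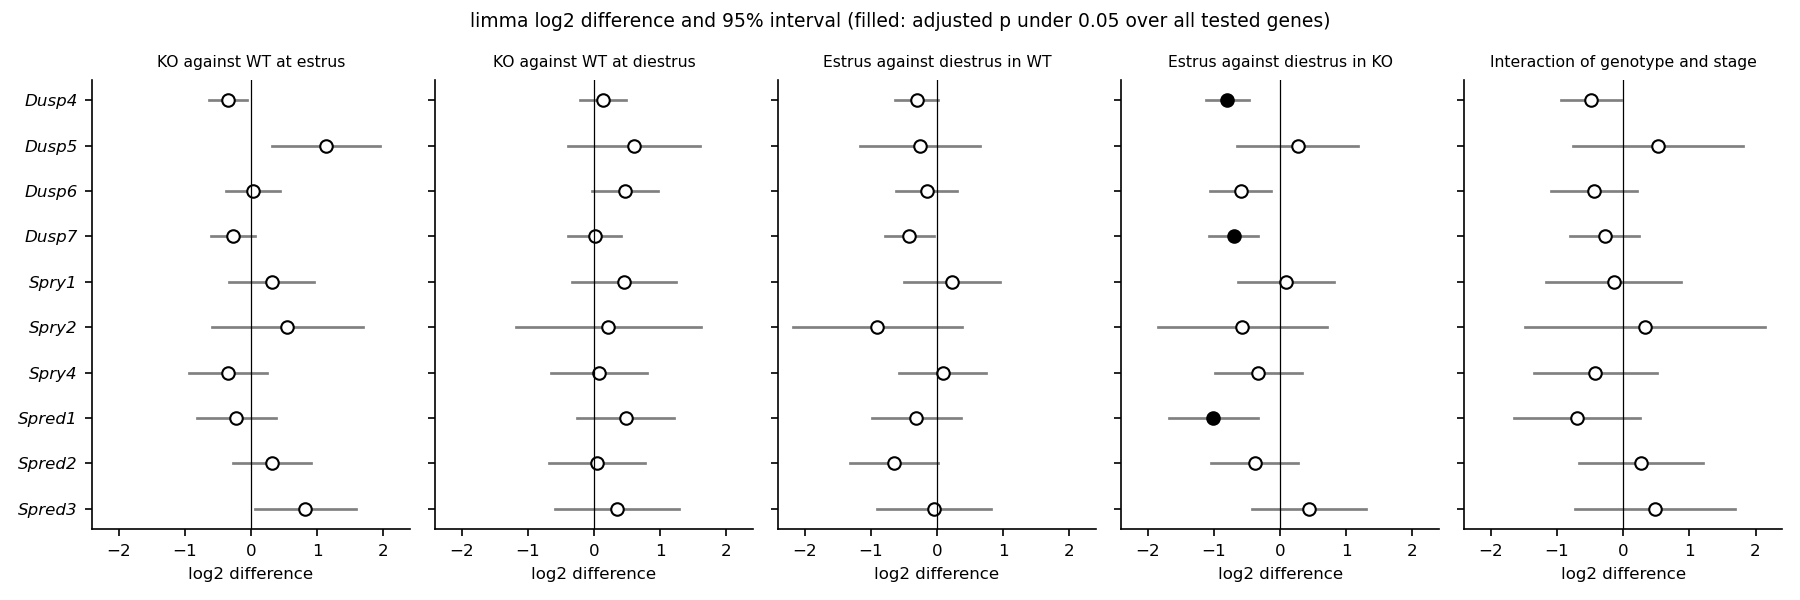
Difference of each gene in each of the 5 comparisons (KO minus WT, estrus minus diestrus, and the interaction) on the log2(normalized count + 1) scale, with bars for the 95% intervals from limma. Filled points are those with an adjusted p under 0.05, which are Dusp4, Dusp7 and Spred1 for estrus against diestrus in KO.

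The 3 calls in KO rested on few libraries, since the diestrus group had 2. Without KO diestrus library 1 or 2, the adjusted p of Dusp4 was 0.0599 or 0.105, that of Dusp7 was 0.131 or 0.132, and that of Spred1 was 0.105 or 0.305. The Dusp7 call was also lost without KO estrus library 2, at 0.0521. The Spred1 call was lost in 12 of 20 alternatives, among them those without KO estrus library 1 (0.129) or 3 (0.0658), WT estrus library 3 (0.0548) or WT diestrus library 1 or 2 (0.0629 each). The direction was kept in all 20 alternatives, from -0.96 to -0.69 on the log2 scale for Dusp4, from -0.81 to -0.59 for Dusp7 and from -1.23 to -0.63 for Spred1.

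**Figure D4:**
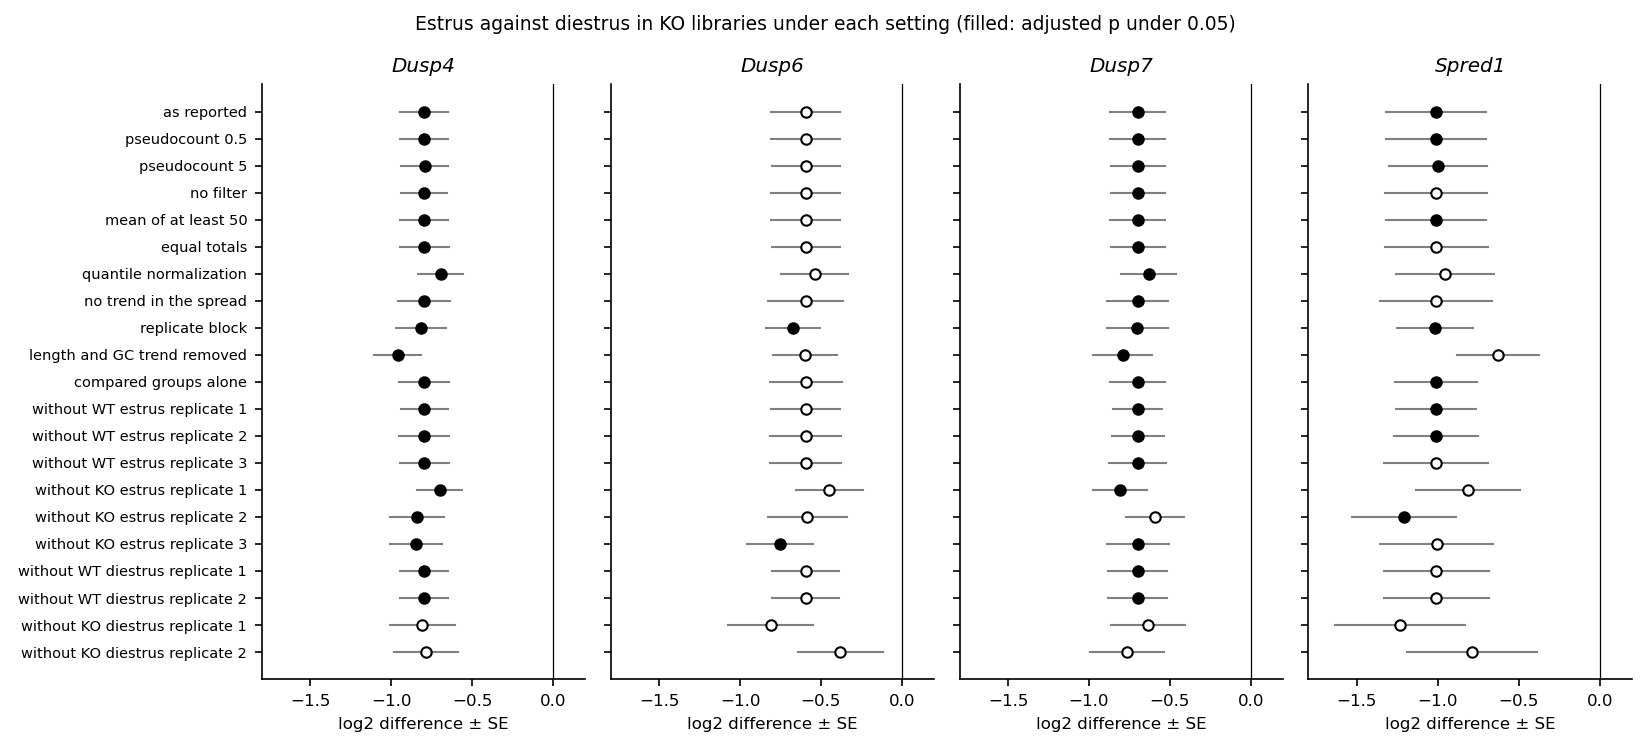
Estrus minus diestrus in KO for Dusp4, Dusp6, Dusp7 and Spred1 as reported (top row) and under each of 20 alternatives, as the log2 difference with bars of 1 SE, filled where the adjusted p was under 0.05. All points lie below 0, and of the 3 called genes Spred1 most often misses the threshold.

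Other properties of the KO libraries differed between the stages as well. The 5 luminal progenitor markers (Elf5, Kit, Aldh1a3, Itga2 and Csn3) summed to 1278 to 1806 normalized counts in KO estrus and to 2201 to 2268 in KO diestrus, against 1409 to 1529 and 1173 to 1964 in WT, with 1 of 5 called, Itga2, at -1.51 ± 0.36 (SE, limma adjusted p = 0.0189). Of the 4 proteins used for sorting, the CD49b gene Itga2 and the CD49f gene Itga6 (-0.52 ± 0.16, limma adjusted p = 0.0493) were lower and the Sca-1 gene Ly6a was higher (1.02 ± 0.29, adjusted p = 0.0345) at estrus. Of 20 alternatives, 4 lost the call of Itga2, 15 that of Itga6 and 9 that of Ly6a, all 3 being lost without either KO diestrus library (adjusted p 0.0656 to 0.282). The level also moved with transcript length: per doubling of length, relative to the average over libraries, log2 levels changed by -0.116, -0.0316 and -0.0765 in the KO estrus libraries and by 0.0577 and 0.0558 in KO diestrus. With the trend on length and GC content removed, the Spred1 difference was -0.63 (limma adjusted p = 0.131), and Dusp4 and Dusp7 were still called. The 5 genes listed as macrophage markers summed to 1393 to 1838 normalized counts in KO estrus and 1167 to 1211 in KO diestrus, mostly through Cd14. The sum thus follows 1 gene and is not a measure of macrophages. Cd14 was the 1 called of the 4 tested (0.63 ± 0.19, limma adjusted p = 0.0441), a call lost in 8 of 20 alternatives. Its difference in WT was also 0.63 ± 0.19 (adjusted p = 1). Cd68 (-0.38 ± 0.39, adjusted p = 0.522) and Csf1r (-0.28 ± 0.18, adjusted p = 0.315) were lower at estrus in KO. Lyz2 had 39, 22 and 11 normalized counts in KO estrus against 3 and 11 in KO diestrus, and Adgre1 had at most 5 in any library. The 5 fibroblast markers summed to 97 to 3082 in KO estrus and 73 to 110 in KO diestrus, nearly all of it Dcn (731, 3065 and 88 against 64 and 99), while Col1a1, Col1a2, Pdgfra and Lum had at most 15 in any library. In WT they summed to 646 to 1605 at estrus and 577 to 635 at diestrus. KO diestrus thus also lay below WT diestrus, with Dcn at -2.87 ± 1.11 for KO minus WT (SE, limma adjusted p = 0.729). Of the 5 basal markers 3 were tested, and none was called between stages in KO. Krt5 had 502, 149 and 47 normalized counts in KO estrus and 54 and 34 in KO diestrus (1.81 ± 0.73, SE, limma adjusted p = 0.105). Krt14 (0.16 ± 0.60, adjusted p = 0.880) and Acta2 (-0.22 ± 0.44, adjusted p = 0.765) did not follow it. The part of these markers in the results was not tested.

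Of the other dual-specificity MAP kinase phosphatases, all 6 listed (Dusp1, Dusp2, Dusp8, Dusp9, Dusp10 and Dusp16) were tested and 0 were called in any comparison by limma. At estrus between KO and WT 1 of the 6, Dusp2, had an unadjusted p under 0.05, against 25.8% of all genes. Between stages in KO 1 did, Dusp1, against 33.8%, and in the other comparisons 0. Dusp2, an inducible nuclear phosphatase of low level, had 45, 51 and 54 normalized counts in KO estrus and 19, 17 and 30 in WT estrus. The groups did not overlap, as for 26% of all genes (log2 1.19 ± 0.33, SE, limma adjusted p = 0.0595). Dusp2 is named here after its values were seen, and its difference was slightly above that of Dusp5. Dusp1, an immediate-early phosphatase of the nucleus, was the most abundant with a mean of 12752 normalized counts and an estrus minus diestrus difference in KO of 0.53 ± 0.21 (limma adjusted p = 0.0996), and Dusp10, which acts on p38 and JNK, followed at 1678.

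Of the cascade that these genes restrain, 16 of 17 listed genes were tested. Between KO and WT at estrus, 1 was called, against 4.2% of all tested genes: Mapk3, which encodes the kinase ERK1. It had 1356, 1160 and 1161 normalized counts in KO and 883, 801 and 749 in WT (log2 0.59 ± 0.15, SE, limma adjusted p = 0.0451), and the call was lost in 12 of 20 alternatives, with adjusted p from 0.0638 to 0.124 over the 8 of them that each left out 1 library, and the difference was 0.35 with length and GC trends removed (adjusted p = 0.141). Between stages in KO, Mapk3 was higher at estrus (0.61 ± 0.16, limma adjusted p = 0.0281), with the same KO estrus libraries. That difference was 0.28 with length and GC trends removed (adjusted p = 0.221) and 0.39 without KO diestrus library 2, and 6 of 20 alternatives lost the call. The adaptors Shc1 (-0.63 ± 0.17, limma adjusted p = 0.0258) and Gab1 (-0.77 ± 0.20, adjusted p = 0.0276) and the Ras exchange factor Sos2 (-1.14 ± 0.28, adjusted p = 0.0200) were lower. In that comparison 16.6% of all tested genes were called, and the list's median was -0.28, against -0.01 over all genes. Neither KO against WT at diestrus nor the WT stages gave a call.

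Among 14 tested of 15 listed other ERK-induced genes, the directions were mixed. Etv5, an ETS factor of the PEA3 group, was lower in KO at estrus, at 99, 76 and 68 normalized counts against 215, 174 and 311 (log2 -1.49 ± 0.24, SE, limma adjusted p = 0.0165). It was the 1 gene of the list called there, where 4.2% of all tested genes were called. Without WT estrus library 3 its difference was -1.26 with a limma adjusted p of 0.0521, and the call was also lost with no trend in the spread (0.0511) and with the compared groups alone (0.0724). Between stages in KO, cyclin D1 (Ccnd1, 1.48 ± 0.22, limma adjusted p = 0.00470), Etv1 (1.15 ± 0.22, adjusted p = 0.00881) and Etv4 (1.36 ± 0.42, adjusted p = 0.0454) were higher at estrus, the direction opposite to that of Dusp4, Dusp7 and Spred1. The receptor Epha2 was lower (-0.79 ± 0.20, limma adjusted p = 0.0222), and 16.6% of all tested genes were called in that comparison. KO minus WT for Etv1 was -0.70 ± 0.20 at estrus and -1.51 ± 0.24 at diestrus (limma adjusted p = 0.0608 and 0.0649). For Etv4 it was -1.02 ± 0.37 and -2.29 ± 0.46 (adjusted p = 0.115 and 0.150), and for Etv5 at diestrus -0.82 ± 0.30 (adjusted p = 0.678). These ETS genes were thus lower in KO than in WT at both stages, with only Etv5 at estrus called. The most abundant genes of this list were the immediate-early factors Fos, with a mean of 63804 normalized counts, and Egr1, with 18838, and neither was called.

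Receptor tyrosine kinases were tested for 12 of 13 listed genes. Met (-1.25 ± 0.33, SE, limma adjusted p = 0.0255) and Fgfr3 (-1.22 ± 0.35, adjusted p = 0.0369) were lower at estrus in KO. Of all tested genes, 16.6% were called between those stages. The list median there was -0.38, and no receptor was called in another comparison. Of the known partners of Sprouty and Spred proteins, 7 of 8 were tested (Nf1, Cbl, Cblb, Tesk1, Rasa1, Cav1 and Lztr1) and 0 were called by limma in any comparison. At an unadjusted p under 0.05 there were 3 between KO and WT at estrus and 2 between stages in KO, against 25.8% and 33.8% of all genes. There was 1 each between KO and WT at diestrus and for the interaction, against 5.92% and 14.2%. All 4 RSK genes were tested, with 0 called and 0 at an unadjusted p under 0.05 in every comparison. Between stages in KO, all the called genes of these lists except Ccnd1 lost their calls without KO diestrus library 1, with adjusted p from 0.0545 for Mapk3 to 0.228 for Etv4. Without KO diestrus library 2 all of them did, from 0.0777 for Ccnd1 to 0.286 for Mapk3. Without KO estrus library 1, Shc1, Gab1, Sos2, Mapk3, Etv4, Met and Fgfr3 missed the threshold at 0.0577 to 0.102, and without library 2 so did Shc1, Etv4, Met and Fgfr3 at 0.0516 to 0.118. Etv4 also missed it without WT estrus library 1 or either WT diestrus library, at 0.0501 to 0.0534.

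Within the set, the values over the 10 libraries followed each other most closely for Spry2 and Spred2 (Pearson r = 0.89), Dusp4 and Dusp7 (0.78) and Dusp6 and Spred1 (0.76), and least for Spry4 and Spred3 (-0.48). Of all other tested genes, the 5 most like Dusp6 were Pld1 (r = 0.96), Epm2aip1 (0.94), Map3k13 (0.91), Ttc33 (0.91) and Fzd3 (0.90). The 5 most like Spry4 were Gm11192 (0.95), Gm18190 (0.94), Fam222a (0.94), Tfrc (0.93) and Slc25a32 (0.93). All are over n = 10 libraries that share a normalization, and the most alike of 15180 genes are high by selection, so they are descriptions.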

How the data were processed

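RNA from sorted mammary epithelial cells was sequenced in 10 libraries of 4 groups, taken from the genotype entry and library names (the KO titles also carry the word WT). Per the submitters' processing notes, mm10, STAR, HTSeq and DESeq2 were used; versions are not given in the sources used here. The table deposited by the authors holds, as a score, normalized counts already rounded by them, so no count model was run. Limma 3.58.1 in R 4.3.3 was fitted to log2(value + 1) with 1 mean per group over all 10 libraries and a variance trend with level, for 15180 genes with a mean of at least 10, with Benjamini-Hochberg adjustment over all of them at 0.05, two-sided. The script was tested on simulated data. Exon lengths and gene positions are from GENCODE M21 on GRCm38. The members, gene lists and tests were chosen with earlier results of these data known. Named were the 10 members, Rps6ka3, called genes of each list with at most 2 others of highest mean, and the 5 genes most like Dusp6 and Spry4; Dusp2 and single markers were named after their values were seen. Alternatives were pseudocounts of 0.5 and 5, no filter, a mean of at least 50, equal totals, quantile normalization, no trend, a replicate block, removal of length and GC trends, fits on only the groups compared, and leaving out 1 library at a time.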

Additional observations from a re-analysis of the deposited data

How the results depend on the processing

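Of 980 results for the 10 genes under alternatives, 961 kept their direction and side of the threshold or were never called, 17 lost and 2 gained a call, and 0 called results changed sign; 31 uncalled ones did. In KO between stages 3 genes of the set were called, 4 with the replicate block (Dusp6, log2 -0.67, limma adjusted p = 0.0244) and 0 to 3 with 1 library left out. Over all genes, KO against WT at estrus gave 637 calls, 89 with no filter, 44 with no trend, 996 with the replicate block, 189 with length and GC trends removed, 23 with the compared groups alone and 67 to 909 with 1 library left out. Of the 637, 191 were higher and 446 lower, against 271 and 303 with equal totals and 397 and 423 with quantile normalization. At diestrus 6 genes were called, 0 with no filter, 3 with a mean of at least 50, 2 with no trend, 98 with the groups alone and 0 to 28 with 1 library left out. Between WT stages 0 were called, 1 with the block and 0 to 6 with 1 library left out. Between KO stages 2524 were called, 1626 with no filter, 1451 with the trends removed and 39 to 2894 with 1 library left out. The interaction gave 0, 3 with quantile normalization and 0 to 3 with 1 library left out. The cause was not tested. Whether replicate numbers pair the libraries is not settled by their correlations. Deviations of same-numbered WT and KO estrus libraries correlated at 0.187, 0.0835 and 0.0309. Each KO estrus library correlated best with the WT estrus library of its number, while WT library 3 correlated best with KO library 2 (0.0786). Same-numbered WT estrus and WT diestrus libraries correlated at -0.131 and -0.132. With 2 libraries in each diestrus group, genes with a wide spread such as Dusp5 and Spry2 could show large changes only.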
